A study of Mus musculus with 8 samples.

Results

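Deletion of Lhx2 from cortical progenitors was compared with control tissue in the newborn mouse subplate, using the 4 libraries of the Emx1Cre line out of the 8 libraries of the series. The mutants were Emx1Cre11.5;Lhx2lox/lox mice, in which Cre removes the floxed Lhx2 gene, and the controls were the mice of the same line labelled WT. Mice of both groups were of mixed strain and were taken at postnatal day 0. Subplate was cut by eye from slices of the somatosensory cortex, and tissue of 2 brains was pooled for each library, so each group holds 2 pools (mutant 1 and 2, control 1 and 2). The members are all genes named in the count table of this line, 55202 of them, of which 18562 had enough reads to be tested. Emx1Cre acts in the progenitors of the dorsal telencephalon, so cells born outside it, such as interneurons, vessels, meninges and thalamic axons, keep Lhx2. Whether the controls carry Cre is not stated, and if they do not, effects of Cre and of the loss of Lhx2 cannot be told apart.

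Lhx2 is a LIM-homeodomain transcription factor. Its LIM domains bind the adaptor Ldb1, which joins it to Ssbp proteins, and Lmo proteins compete for the same adaptor. In the embryonic mouse cortex Lhx2 restrains the fate of the cortical hem, the source of Bmp and Wnt signals beside the hippocampus, and takes part in the timing of neuron and glia production. The subplate lies under the cortical plate, and its early neurons are where thalamic axons wait before they grow into the cortex.

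The libraries held 56.9 M and 42.6 M reads in mutants, against 64.4 M and 40.8 M in controls. Values per library are counts per M reads scaled by TMM (CPM), and each log2 fold change is mutants over controls with its standard error (SE) from edgeR. Markers of subplate neurons were found in all 4 libraries: the 16 markers summed to 821 and 753 CPM in mutants, against 833 and 920.4 CPM in controls. Small RNA took 0.0587% of reads in mutant 1 and 0.0557% in control 1, but 0.576% in mutant 2 and 0.441% in control 2, so a difference in library content followed the replicate numbers. For that reason the differences within each number (mutant 1 minus control 1, mutant 2 minus control 2, 1 library a side, no test) are given beside results. The Y-linked gene Ddx3y had 26.1 and 0 CPM in mutants, against 2.15 and 25.8 CPM in controls, so the mix of male and female pups differed between pools and crossed the groups. Replicate pools differed far beyond counting noise, and the typical spread of a gene between pools was 26.4% (biological coefficient of variation).

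With 2 pools a side the edgeR quasi-likelihood test, the main test, called no gene at an adjusted p of 0.05. Its smallest adjusted p was 0.0659, and 1181 genes (6.36%) had an unadjusted p under 0.05, where chance alone gives 928. DESeq2 on the same libraries and genes called 249 genes (1.34%), 168 higher (0.905%) and 81 lower (0.436%) in mutants, and each of the 249 had an unadjusted edgeR p under 0.05. Hereafter "called" means a DESeq2 adjusted p under 0.05, and every such call stands beside an edgeR test that made none. The shares of 0.905% higher and 0.436% lower are the background for the calls counted in gene lists below. All lists were chosen with earlier results of these data known, and several share members. With the replicate number as a block, edgeR called 574 genes, 245 of the 249 among them, but with 2 numbers the design does not show that same-numbered pools were paired. In all 249 genes both mutants lay beyond both controls, a pattern that 3231 genes (17.4%) showed on the higher side and 2959 (15.9%) on the lower side. The higher genes had a median log2 fold change of 1.31 and 131 of them were over 2-fold. The lower genes had a median of −1.23 and 62 were over 2-fold. The median over all tested genes was 0.00145.

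The calls rested on few pools. Of the 249, DESeq2 called 116 again without mutant 1, 65 without mutant 2, 88 without control 1 and 65 without control 2. It called 28 genes whichever library was left out, 17 higher and 11 lower. The higher ones were Agt, Apoe, Aqp4, Cbln2, Col23a1, Cyp26b1, Dmrt2, Etl4, Gja1, Kcnj16, Npbwr1, Oprk1, Selenop, Slc4a4, Slc6a4, Sparcl1 and Syn2. The lower ones were Cldn3, Cplx3, Emx1, Inhba, Klhl14, Pou3f1, Pou3f2, Prdm8, Ptger4, Sema7a and Tbc1d5. Below, these are named as called in every fit that left out 1 library. Many of the other calls are given with the number of the 4 such fits that kept them. Every call outside these 28 was lost in at least 1 such fit, whether or not a number is given.

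**Figure D1:**
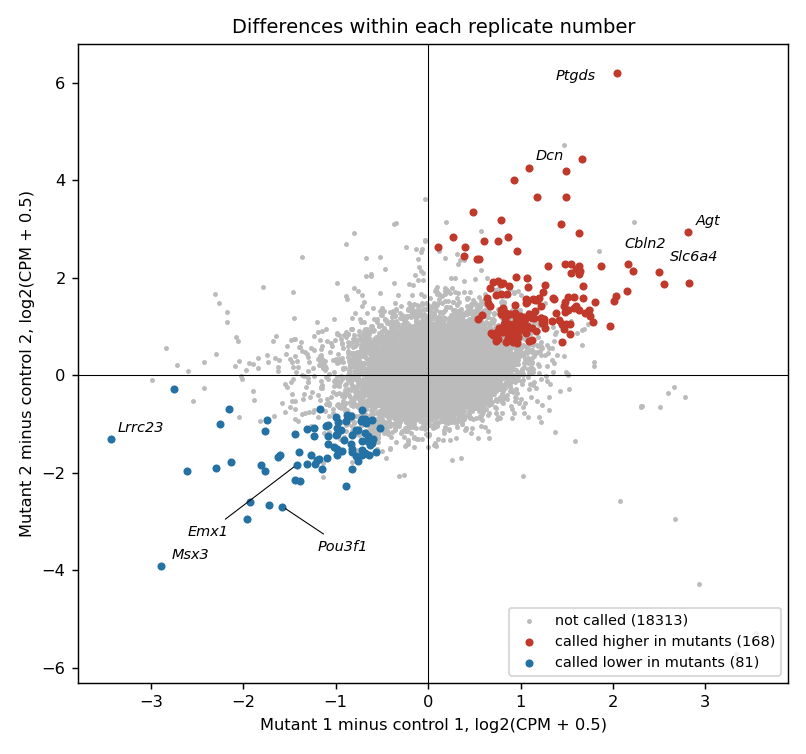
Each point is 1 of the 18562 tested genes, placed by mutant 1 minus control 1 (x axis) and mutant 2 minus control 2 (y axis), both as differences of log2(CPM + 0.5). The 168 genes called higher (red) lie above 0 on both axes and the 81 called lower (blue) lie below 0 on both, and Ptgds and Dcn lie far higher on the y axis than on the x axis.

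The targeted gene was lower in both mutants. Lhx2 (chromosome 2, 38339281 to 38369733, mm10) had 61.2 and 41.6 CPM in mutants, against 87.1 and 86.9 CPM in controls. The groups did not overlap, and the log2 fold change was −0.76 ± 0.21 (95% interval −1.25 to −0.27). The difference was not called (DESeq2 adjusted p = 0.1). It depended on the mutant pool: without mutant 1 the log2 fold change was −1.06 and was called (DESeq2 adjusted p = 0.0202), and without mutant 2 it was −0.50 with no call. Counts are given per gene, so reads from exons outside the floxed part and from cells that Emx1Cre does not reach are counted too. The 11 genes of the Lhx2 complex included 1 call, Ssbp2, which encodes a single-stranded DNA-binding protein of the Ldb1 complex. Ssbp2 had 136 and 110.2 CPM in mutants, against 218 and 253 CPM in controls (log2 fold change −0.94 ± 0.19, DESeq2 adjusted p = 0.00335, kept in 2 of 4 fits). Ldb1 itself had 93.8 and 84.7 CPM in mutants and 109 and 88.7 CPM in controls, and Lmo4 had 131 and 176 CPM in mutants and 123 and 155 CPM in controls, and in both genes the groups overlapped.

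Emx1, the homeobox gene that gives the Cre line its name, had 23.6 and 20.5 CPM in mutants, against 64.0 and 74.4 CPM in controls. It was lower in both mutants by a similar amount (log2 fold change −1.65 ± 0.19, DESeq2 adjusted p = 3.04e-09) and was called in every fit that left out 1 library. How the driver allele alters Emx1 (chromosome 6, 85187438 to 85204462) is not given in the sources used here, and its part in this difference was not tested. The related gene Emx2 had 7.25 and 5.36 CPM in mutants and 6.12 and 6.47 CPM in controls, with overlapping groups. Neurod6, a transcription factor of cortical excitatory neurons, had 309 and 204 CPM in mutants and 324 and 293 CPM in controls, with overlapping groups and a log2 fold change of −0.27 ± 0.22.

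A list of homeobox, proneural and cortical regulators held 10 of the 81 lower calls. It was chosen with earlier results of these data known, so its counts are a description and not a test. Members such as Pou3f1 are counted again in other lists. Of its 37 tested genes 10 were called lower and 1, Dmrt3, was called higher (0.436% and 0.905% over all genes). At an unadjusted edgeR p under 0.05 there were 16 lower (1.9% of all genes) and 1 higher (4.47% of all genes), 31 of the 37 had a log2 fold change below 0, and the median was −0.57. Within replicate numbers the medians were −0.42 for number 1 and −0.52 for number 2. Of the 11 calls, 10 were kept without mutant 1, 7 without mutant 2, 8 without control 1 and 7 without control 2. In these bulk samples fewer cells of a type and less RNA per cell cannot be told apart.

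The largest difference among them was Msx3, a homeobox gene of the Msx family that acts downstream of Bmp signals (chromosome 7, 140046157 to 140049089). It had 0.0679 and 0 CPM in mutants, against 3.71 and 7.06 CPM in controls. That is 4 and 0 reads in mutants and 248 and 275 reads in controls. Its DESeq2 adjusted p was 1.19e-11, and the call was lost without control 1 (DESeq2 adjusted p = 0.42). Of the 4 POU class 3 factors, several of which act in upper-layer neurons, 2 were called lower. Pou3f1 (chromosome 4, 124656807 to 124660655) had 17.2 and 14.4 CPM in mutants, against 52.2 and 95.9 CPM in controls (log2 fold change −2.23 ± 0.30, DESeq2 adjusted p = 2.28e-10). Pou3f2 had 15 and 12.4 CPM in mutants, against 35.2 and 42.4 CPM in controls (log2 fold change −1.5 ± 0.22, DESeq2 adjusted p = 1.96e-06). Both were called in every fit that left out 1 library. Pou3f3, the most abundant of the family in these libraries, had 118 and 126 CPM in mutants, against 157 and 204 CPM in controls, and was not called (log2 fold change −0.57 ± 0.19, DESeq2 adjusted p = 0.326). Pou3f4 had a log2 fold change of 0.01 ± 0.36, so the class split into members with large and small differences.

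Prdm8 and Bhlhe22, which in mouse cortex form a repressor complex needed for axon tracts, were both lower. Prdm8 had 6.2 and 6.52 CPM in mutants, against 20.1 and 21.9 CPM in controls (log2 fold change −1.72 ± 0.24, DESeq2 adjusted p = 1.72e-07), and was called in every fit that left out 1 library. Bhlhe22 had 56.7 and 32.4 CPM in mutants, against 121 and 106 CPM in controls (log2 fold change −1.35 ± 0.26, DESeq2 adjusted p = 0.000229, kept in 2 of 4 fits). The chromatin organiser Satb1 had 82.0 and 61.6 CPM in mutants, against 157 and 181 CPM in controls (log2 fold change −1.24 ± 0.20, DESeq2 adjusted p = 3.93e-05, kept in 3 of 4 fits). The repressor Zbtb18 had 525 and 494 CPM in mutants, against 825 and 1266 CPM in controls (log2 fold change −1.04 ± 0.24, DESeq2 adjusted p = 0.00342, kept in 2 of 4 fits).

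Deep-layer factors were not called. Fezf2, which specifies neurons that project to the brainstem and spinal cord, had 56.5 and 52.7 CPM in mutants and 50 and 64.9 CPM in controls. Tbr1, a factor of layer 6 and subplate neurons, had 248 and 258 CPM in mutants and 196 and 237 CPM in controls (log2 fold change 0.23 ± 0.18). Bcl11b had 93.6 and 183 CPM in mutants and 112 and 155 CPM in controls, with overlapping groups. Over the whole list of 15 deep-layer markers none was called, and the median of 0.05 had no stable sign, with 0.10 and −0.30 within replicate numbers 1 and 2, −0.25 without control 1 and 0.26 without control 2. The difference from the upper-layer list was not tested. In the deep-layer list 1 gene was lower at an unadjusted edgeR p under 0.05 (Etv1, log2 fold change −0.58 ± 0.21), against 1.9% over all genes. Nfia had the next lowest p, with a log2 fold change of −0.38 ± 0.18.

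Dmrt genes encode DM-domain factors, several of which act in medial cortical progenitors, and 2 of them stood against the other regulators. Dmrt2 had 12.9 and 9.32 CPM in mutants, against 1.78 and 2.18 CPM in controls (log2 fold change 2.49 ± 0.34, DESeq2 adjusted p = 8.91e-09), and was called in every fit that left out 1 library. Dmrt3 (chromosome 19, 25610301 to 25623921) had 3.99 and 2.70 CPM in mutants, against 0.135 and 0.359 CPM in controls (log2 fold change 3.82 ± 0.60, DESeq2 adjusted p = 3.56e-06, kept in 3 of 4 fits). Its log2 fold change was 3.21 without control 1 and 4.62 without control 2. The family was looked at after these values were seen, and 6 of its genes were tested. Dmrta1 (log2 fold change 0.11 ± 0.47) and Dmrta2 (−0.02 ± 0.31), both known from cortical progenitors, had overlapping groups, as did Dmrtb1 (0.29 ± 0.32). Dmrtc1a was lower without a call (−1.48 ± 0.67).

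**Figure D2:**
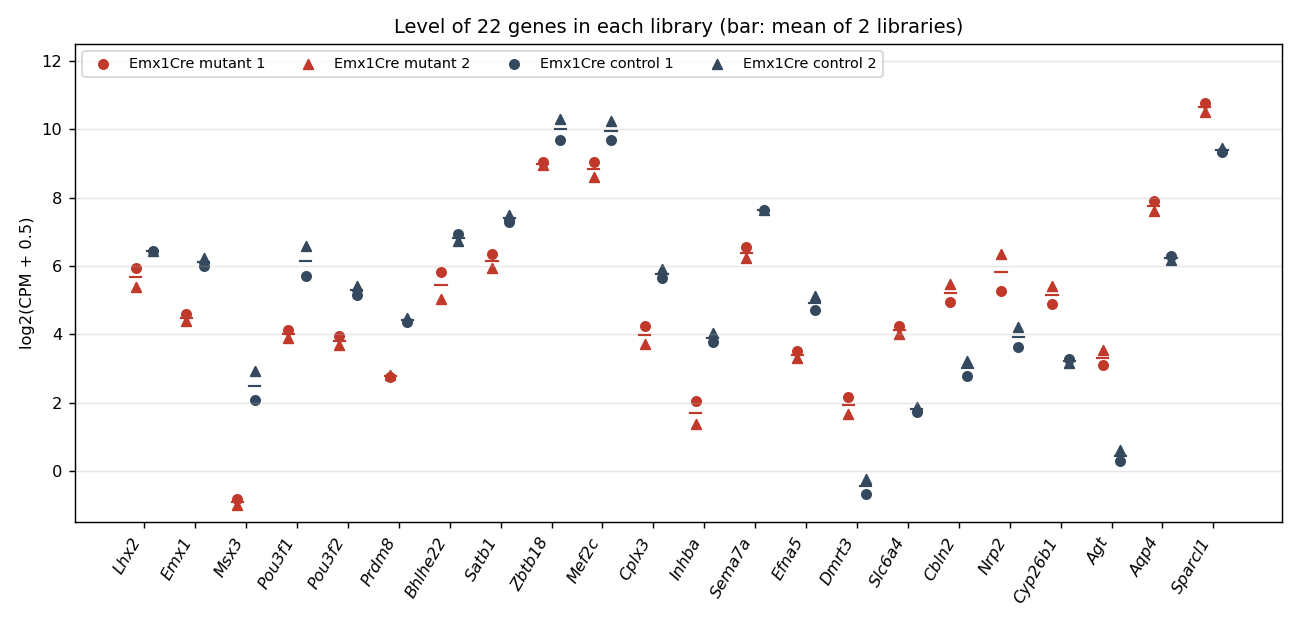
Levels of 22 genes as log2(CPM + 0.5) in mutant 1 and 2 (red circle and triangle) and control 1 and 2 (blue circle and triangle), with a bar at the mean of each group. Genes from Lhx2 to Efna5 lie lower in both mutants and genes from Dmrt3 to Sparcl1 lie higher in both, with no overlap between the groups. All but Lhx2 were chosen from the called genes, none of which had overlapping groups, so the lack of overlap follows from that choice.

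Promoter sequences were read for these genes because the study removes a transcription factor. LIM-homeodomain proteins bind sites with the core TAATTA, which reads the same on both strands, so 1 search covers both, and no other motif was searched. The sequences are from RefSeq on GRCm38.p6 (the build of mm10), from 250 bases before to 50 bases after a transcript start. Of the 18562 tested genes 12449 had at least 1. A gene was counted if any of its promoters held the core, so genes with more promoters had more chances. The core was found for 430 of the 12449 genes (3.45%). Among genes with a promoter it was found for 6 of 127 called higher (4.72%) and for 2 of 54 called lower (3.7%). The 4 shown are those of the gene with the lowest DESeq2 p in each direction (Msx3, Agt) and of the gene with the lowest p in each direction that holds the core (Mef2c, Etl4), each written 5′ to 3′ with the core in capitals. Mef2c and Etl4 each have 3 promoters in the table, of which the 1 with the core is shown.
Msx3, lower, chr7:140049039-140049338, minus strand: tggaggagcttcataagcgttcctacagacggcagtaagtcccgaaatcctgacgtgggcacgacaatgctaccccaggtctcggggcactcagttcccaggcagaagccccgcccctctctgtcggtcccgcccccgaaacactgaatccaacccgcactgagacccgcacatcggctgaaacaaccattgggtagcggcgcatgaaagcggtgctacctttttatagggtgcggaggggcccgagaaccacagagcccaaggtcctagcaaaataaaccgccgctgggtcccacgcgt
Mef2c, lower, chr13:83523406-83523705, plus strand: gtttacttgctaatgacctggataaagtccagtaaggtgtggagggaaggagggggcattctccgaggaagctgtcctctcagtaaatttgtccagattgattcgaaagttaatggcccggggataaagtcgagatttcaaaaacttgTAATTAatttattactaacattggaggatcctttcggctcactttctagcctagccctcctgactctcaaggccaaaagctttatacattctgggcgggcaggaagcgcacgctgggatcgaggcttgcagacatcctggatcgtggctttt
Agt, higher, chr8:124569657-124569956, minus strand: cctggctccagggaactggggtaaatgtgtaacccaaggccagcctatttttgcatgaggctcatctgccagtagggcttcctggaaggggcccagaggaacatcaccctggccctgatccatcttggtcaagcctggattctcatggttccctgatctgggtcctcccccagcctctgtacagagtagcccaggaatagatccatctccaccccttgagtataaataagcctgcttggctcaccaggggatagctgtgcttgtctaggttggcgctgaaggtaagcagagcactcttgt
Etl4, higher, chr2:20289663-20289962, plus strand: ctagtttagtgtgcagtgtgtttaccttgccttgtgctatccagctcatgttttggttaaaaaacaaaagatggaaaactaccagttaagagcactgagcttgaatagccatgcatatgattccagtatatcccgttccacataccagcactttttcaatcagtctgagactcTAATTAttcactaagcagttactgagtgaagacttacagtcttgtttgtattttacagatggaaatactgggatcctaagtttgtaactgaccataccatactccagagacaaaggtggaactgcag
The core begins at base 149 of the Mef2c sequence and at base 174 of the Etl4 sequence, before the transcript start of each window. Both windows lie inside the span of the gene, which begins at 83504034 for Mef2c and at 19909780 for Etl4. Each core thus precedes an internal start, not the start of the gene. Neither the Msx3 nor the Agt sequence holds it. A match is a description of letters in this window and is no evidence of binding.

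Markers of upper-layer and layer 4 neurons held 7 lower calls. The list was chosen with earlier results of these data known, and it shares members with other lists. Its calls include Pou3f1 and Pou3f2, described above, and Inhba, which is counted again among the activin genes. Of 15 tested, 7 were called lower and none higher (0.436% and 0.905% over all genes), 10 did not overlap on the lower side (15.9% over all genes), and the median was −0.70. The summed level of the list was 1451 and 1294 CPM in mutants, against 2053 and 2760 CPM in controls. The calls kept were 5 without mutant 1, 4 without mutant 2, 5 without control 1 and 3 without control 2. Within replicate numbers the medians were −0.42 and −0.93.

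Mef2c, a MADS-box factor of cortical excitatory neurons (chromosome 13, 83504034 to 83667080), had 527 and 391 CPM in mutants, against 819 and 1219 CPM in controls (log2 fold change −1.15 ± 0.25, DESeq2 adjusted p = 0.00118, kept in 2 of 4 fits). Rorb, a nuclear receptor of layer 4 neurons, had 15.3 and 5.84 CPM in mutants, against 27.4 and 23.4 CPM in controls (log2 fold change −1.26 ± 0.40, DESeq2 adjusted p = 0.046). Its value leaned on mutant 2: the log2 fold change was −2.12 without mutant 1 and −0.73 without mutant 2, and 1 of 4 fits kept the call. Mdga1, an adhesion molecule of upper-layer neurons, had 47.7 and 69.8 CPM in mutants, against 95.4 and 164 CPM in controls (log2 fold change −1.14 ± 0.29, DESeq2 adjusted p = 0.0107, kept in 2 of 4 fits). Cux1 and Cux2, the homeobox markers most used for these layers, were not called, with log2 fold changes of −0.44 ± 0.22 and −0.56 ± 0.29.

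Of the 16 subplate markers 4 were called lower and none higher (0.436% and 0.905% over all genes). On the lower side 6 did not overlap (15.9% over all genes), and on the higher side 3 (17.4% over all genes), which is near the share over all genes. Their median was 0.05, with −0.11 and −0.04 within replicate numbers 1 and 2, and from −0.11 without mutant 1 to 0.03 without control 1. Cplx3, a complexin of subplate nerve endings, had 18.6 and 12.8 CPM in mutants, against 49.4 and 59.5 CPM in controls (log2 fold change −1.79 ± 0.24, DESeq2 adjusted p = 1.46e-08), and was called in every fit that left out 1 library. Pappa2, a secreted protease, had 23.3 and 24.5 CPM in mutants, against 50 and 59.2 CPM in controls (log2 fold change −1.19 ± 0.19, DESeq2 adjusted p = 0.000106, kept in 3 of 4 fits). The other lower calls were Nxph4, a neurexophilin, at 18.6 and 31 CPM in mutants and 46.9 and 67.6 CPM in controls, and Kcnab1, a potassium channel subunit, at 24.3 and 29.2 CPM in mutants and 52.2 and 60.0 CPM in controls. Against these, the nuclear receptor Nr4a2 had 140.1 and 134 CPM in mutants and 90.4 and 93.1 CPM in controls (log2 fold change 0.58 ± 0.16, DESeq2 adjusted p = 0.236, not called). In all, 9 of the 16 had a log2 fold change above 0. The 4 calls were kept in 2 cases without mutant 1, 4 without mutant 2, 4 without control 1 and 1 without control 2.

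Of 8 tested markers of Cajal-Retzius cells, the early neurons of the cortical surface, none was called and the median was −0.23, which became 0.14 without control 2 and lay between −0.56 and −0.43 without each other library. The p53 relative Trp73 had 1.58 and 0.386 CPM in mutants, against 4.08 and 3.28 CPM in controls (log2 fold change −1.88 ± 0.61, DESeq2 adjusted p = 0.103), and Ndnf, a secreted neuron-derived factor, had a log2 fold change of −1.04 ± 0.41. Reln, the secreted signal of these cells, had 68.7 and 91.3 CPM in mutants and 90.5 and 122 CPM in controls, with overlapping groups. Among 10 hippocampal markers Nrp2, Wfs1 and Prox1 were called higher (0.905% over all genes), and the median was 0.51. Wfs1, an endoplasmic reticulum protein of field CA1, had 20.3 and 32.8 CPM in mutants, against 12.6 and 12 CPM in controls (log2 fold change 1.11 ± 0.28, DESeq2 adjusted p = 0.0201). Prox1, a homeobox gene of dentate granule cells and of some interneurons, had 17.8 and 20.6 CPM in mutants, against 8.66 and 10.1 CPM in controls (log2 fold change 1.04 ± 0.25, DESeq2 adjusted p = 0.0202). None of the 3 calls was kept without mutant 2, 2 were kept without mutant 1 and 1 without either control. Interneuron markers were higher in mutant 2 too, with values given further on, and their part in the Prox1 difference was not tested.

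Markers of piriform cortex and amygdala had 2 higher calls among 11 (0.905% over all genes), Cyp26b1 and Tfap2d. The median of 0.30 rested on single libraries: it was −0.04 without mutant 2, 0.07 without control 1 and 0.57 without mutant 1, and −0.03 within replicate number 1. Cyp26b1, which breaks down retinoic acid, had 29.4 and 41.9 CPM in mutants, against 9.15 and 8.47 CPM in controls (log2 fold change 2.01 ± 0.25, DESeq2 adjusted p = 6.73e-10), and was called in every fit that left out 1 library. Tfap2d, an AP-2 factor, had 5.02 and 5.53 CPM in mutants, against 2.12 and 1.64 CPM in controls (log2 fold change 1.48 ± 0.36, DESeq2 adjusted p = 0.0346, kept in none of the 4 fits).

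Of 10 tested activin genes 3 were called lower (0.436% over all genes), a ligand, an inhibitor and a receptor. The median of the list was −0.14 (−0.50 without mutant 1 and −0.35 without control 1). Inhba, the activin βA subunit (chromosome 13, 16011851 to 16031621), had 3.65 and 2.10 CPM in mutants, against 13.2 and 15.9 CPM in controls (log2 fold change −2.33 ± 0.35, DESeq2 adjusted p = 3.07e-08), and was called in every fit that left out 1 library. Fst, follistatin, which binds and blocks activin, had 1.26 and 2.10 CPM in mutants, against 5.67 and 8.83 CPM in controls (log2 fold change −2.11 ± 0.41, DESeq2 adjusted p = 0.000266, kept in 2 of 4 fits). Acvr1, a type I receptor of this family, had 25.3 and 24.4 CPM in mutants, against 45.5 and 43.9 CPM in controls (log2 fold change −0.85 ± 0.19, DESeq2 adjusted p = 0.0183, kept in none of the 4 fits). Of 20 cortical hem and Bmp genes, Msx3 and Id2 were called lower and Id3 higher, with a median of 0.07 that ran from −0.17 without mutant 2 to 0.29 without mutant 1. The Id proteins block helix-loop-helix factors. Id2 had 143 and 163 CPM in mutants, against 236 and 305 CPM in controls, while Id3 had 79.4 and 83.1 CPM in mutants, against 44.6 and 39.8 CPM in controls. Without a library the calls of Id2 and Id3 were kept in 1 and 0 of the 4 fits.

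Of 31 Wnt pathway genes 1 was called, the ligand Wnt5a, and 9 were higher and 1 lower at an unadjusted edgeR p under 0.05 (4.47% and 1.9% over all genes), with a median of 0.36 (0.15 without control 2). Wnt5a had 16.7 and 15.6 CPM in mutants, against 5.43 and 8.52 CPM in controls (log2 fold change 1.21 ± 0.30, DESeq2 adjusted p = 0.0174, kept in 1 of 4 fits). Axin2, a common readout of canonical Wnt signalling, had 23.6 and 19.5 CPM in mutants and 15.4 and 17.1 CPM in controls (log2 fold change 0.41 ± 0.23, not called). Of 25 FGF genes, Fgf1 and the ETS factor Etv5 were called higher (log2 fold changes 1.27 ± 0.36 and 0.89 ± 0.18), and neither call was kept in any of the 4 fits. Of 20 Notch genes none was called, and the median was 0.18 (−0.06 without control 2 and 0.35 without control 1), with the receptor Notch3 at 0.76 ± 0.19 and the target Heyl at 0.56 ± 0.32. Of 25 genes of trophic factors and their receptors, Ngfr, Met and Hgf were called lower and Gfra1 higher (0.436% and 0.905% over all genes). Ngfr, the low-affinity neurotrophin receptor of subplate neurons, had 13 and 14.9 CPM in mutants, against 32.0 and 47.3 CPM in controls (log2 fold change −1.5 ± 0.25, DESeq2 adjusted p = 1.84e-05, kept in 3 of 4 fits). Hgf and its receptor Met were both lower, Hgf at 1.26 and 1.21 CPM in mutants and 5.37 and 2.75 CPM in controls, and Met at 67.9 and 34.3 CPM in mutants and 101 and 104 CPM in controls. Hgf kept its call in 0 and Met in 1 of the 4 fits.

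Axon guidance genes moved both ways. Of 65 tested, 3 were called lower and 2 higher (0.436% and 0.905% over all genes), and the median was −0.11 (0.09 without control 2). Sema7a, a membrane-anchored semaphorin (chromosome 9, 57940112 to 57962865), had 93.3 and 74.4 CPM in mutants, against 199 and 199 CPM in controls (log2 fold change −1.25 ± 0.18, DESeq2 adjusted p = 5.56e-06), and was called in every fit that left out 1 library. Its receptor Plxnc1 had 108 and 82.1 CPM in mutants, against 45.2 and 24.8 CPM in controls (log2 fold change 1.43 ± 0.29, DESeq2 adjusted p = 0.000223, kept in 2 of 4 fits). Ligand and receptor thus stood on opposite sides. The ephrin Efna5, a graded cue of the cortex for thalamic axons, had 10.9 and 9.36 CPM in mutants, against 26 and 34.6 CPM in controls (log2 fold change −1.58 ± 0.25, DESeq2 adjusted p = 3.29e-06, kept in 3 of 4 fits). Its receptor Epha4 had 74.2 and 71.0 CPM in mutants, against 107 and 152 CPM in controls (log2 fold change −0.83 ± 0.21, DESeq2 adjusted p = 0.0392, kept in 1 of 4 fits). Nrp2, a semaphorin co-receptor, had 38.5 and 81.2 CPM in mutants, against 12 and 18.2 CPM in controls (log2 fold change 1.99 ± 0.36, DESeq2 adjusted p = 3.59e-06). Without mutant 2, which had the highest Nrp2 level, its log2 fold change was 1.36 and its DESeq2 adjusted p 0.0821.

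Of 56 adhesion genes 5 were called higher and 1 lower (0.905% and 0.436% over all genes). The homophilic adhesion molecules Sdk1 and Sdk2, which match synaptic partners in the mouse retina, were both among the higher. Sdk2 had 41.9 and 42.2 CPM in mutants, against 16.2 and 19.3 CPM in controls (log2 fold change 1.24 ± 0.20, DESeq2 adjusted p = 0.000119, kept in 2 of 4 fits). Sdk1 had 66.9 and 85.0 CPM in mutants, against 31.8 and 46.4 CPM in controls (log2 fold change 0.96 ± 0.23, DESeq2 adjusted p = 0.0305, kept in 1 of 4 fits). The cadherin Cdh4 (1.28 ± 0.27), the protocadherin Pcdh10 (0.92 ± 0.16) and the contactin partner Cntnap4 (0.93 ± 0.20) were the other higher calls, and Cntn3 (−1.06 ± 0.28) was the lower one. The 6 adhesion calls kept were 2 without mutant 1, 0 without mutant 2, 1 without control 1 and 2 without control 2.

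Synapse organisers held the gene with the third lowest DESeq2 p on the higher side. Cbln2, a secreted cerebellin that acts at synapses, had 30.6 and 44.5 CPM in mutants, against 6.45 and 8.83 CPM in controls (log2 fold change 2.30 ± 0.28, DESeq2 adjusted p = 2.59e-11). Sparcl1, a matrix protein from astrocytes that promotes synapses, had 1764 and 1451 CPM in mutants, against 643 and 707 CPM in controls (log2 fold change 1.25 ± 0.20, DESeq2 adjusted p = 3.56e-06). Cbln2 and Sparcl1 were the 2 calls among 34 synapse organisers, and both were called in every fit that left out 1 library. Of 38 extracellular matrix genes 4 were called higher and none lower, and 19 did not overlap on the higher side against 2 on the lower. Over all genes 0.905% were called higher, and 17.4% and 15.9% did not overlap on the higher and the lower side. Col23a1, a transmembrane collagen, had 66.6 and 69.8 CPM in mutants, against 18.6 and 24.3 CPM in controls (log2 fold change 1.67 ± 0.20, DESeq2 adjusted p = 1.23e-08), and was called in every fit that left out 1 library. Col25a1, another transmembrane collagen, had 8.13 and 10.1 CPM in mutants, against 2.81 and 3.93 CPM in controls (log2 fold change 1.44 ± 0.33, kept in none of the 4 fits).

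Of 19 tested genes of the serotonin system 2 were called higher, 17 had a log2 fold change above 0, and 8 were higher at an unadjusted edgeR p under 0.05 (4.47% over all genes) and none lower, with a median of 0.70. Slc6a4, the serotonin transporter (chromosome 11, 76998603 to 77032340), which thalamic neurons carry in newborn mice, had 18.4 and 15.5 CPM in mutants, against 2.84 and 3.21 CPM in controls (log2 fold change 2.49 ± 0.28, DESeq2 adjusted p = 3.56e-12). It was called in every fit that left out 1 library, with log2 fold changes from 2.36 to 2.61. Of the 11 tested thalamic markers Slc6a4 was the only call, and 5 did not overlap on the higher side and 2 on the lower (17.4% and 15.9% over all genes). Their median was 0.12, and −0.09 without control 1 and 0.53 without control 2. Tcf7l2, a factor that defines thalamic neurons, had 2.44 and 4.51 CPM in mutants and 2.14 and 2.08 CPM in controls, and the calcium-binding protein Calb2 had 8.57 and 11.6 CPM in mutants and 7.33 and 7.90 CPM in controls. The LIM-homeodomain gene Lhx9 had 1.66 and 0.314 CPM in mutants and 0.269 and 0.282 CPM in controls (log2 fold change 1.85 ± 0.85, and 0.19 without mutant 1), and the zinc-finger gene Zic1 had 3.90 and 7.26 CPM in mutants and 2.36 and 2.36 CPM in controls (log2 fold change 1.24 ± 0.40). Neither was called, and both were named after their values were seen. The receptor Htr2c had 3.73 and 8.37 CPM in mutants, against 1.38 and 0.205 CPM in controls (log2 fold change 2.88 ± 0.76, DESeq2 adjusted p = 0.00131), and its log2 fold change lay between 2.14 (without control 2) and 4.86 (without control 1). Htr2a, the related receptor, had 8.25 and 11.8 CPM in mutants and 10.1 and 13.4 CPM in controls, with overlapping groups. Tph1, an enzyme of serotonin synthesis, also named after its value was seen, had 2.10 and 1.04 CPM in mutants and 3.11 and 2.85 CPM in controls (log2 fold change −0.91 ± 0.46, not called). The median of the serotonin list was 0.39 within replicate number 1 and 0.62 within number 2, and 0.37 without mutant 2.

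Receptors for other amines, peptides and lipids were then gathered by name, after calls among them had been seen. Of 84 tested, serotonin receptors included, 9 were called higher and 3 lower (0.905% and 0.436% over all genes). Of the 84, 59 had a log2 fold change above 0, and the median was 0.38, against 0.00145 over all genes. The κ-opioid receptor Oprk1 had 11.3 and 11.8 CPM in mutants, against 2.72 and 2.10 CPM in controls (log2 fold change 2.26 ± 0.31, DESeq2 adjusted p = 2.63e-08). Npbwr1, a neuropeptide B/W receptor, had 10.4 and 9.32 CPM in mutants, against 2.15 and 2.69 CPM in controls (log2 fold change 2.02 ± 0.32, DESeq2 adjusted p = 4.9e-06). Both were called in every fit that left out 1 library, and both couple to inhibitory G proteins. Npy2r (log2 fold change 2.26 ± 0.54), the histamine receptor Hrh1 (1.72 ± 0.39), the cholecystokinin receptor Cckbr (1.44 ± 0.28), the neurokinin receptor Tacr1 (1.2 ± 0.31), the endothelin receptor Ednrb (1.04 ± 0.17) and the PACAP receptor Adcyap1r1 (0.71 ± 0.17) were also called higher. The 3 lower calls were 2 prostaglandin E receptors and 1 histamine receptor. Ptger4 had 1.22 and 1.86 CPM in mutants, against 7.96 and 8.31 CPM in controls (log2 fold change −2.41 ± 0.36, DESeq2 adjusted p = 5.65e-07), and was called in every fit that left out 1 library. Ptger3 had a log2 fold change of −1.06 ± 0.26, and its call was kept in none of the 4 fits. Hrh3, a presynaptic histamine receptor, had 8.13 and 9.61 CPM in mutants, against 22.3 and 29.5 CPM in controls (log2 fold change −1.55 ± 0.25, DESeq2 adjusted p = 1.31e-05, kept in 3 of 4 fits), so Hrh1 and Hrh3 stood on opposite sides. Of the 12 receptor calls 5 were kept without mutant 1, 6 without mutant 2, 8 without control 1 and 3 without control 2.

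Among 40 glutamate and GABA receptors 33 had a log2 fold change above 0, the median was 0.26, and 1 was called in each direction. The lower one, Grm2, a presynaptic metabotropic glutamate receptor, had 24.4 and 24.2 CPM in mutants, against 48.9 and 52.2 CPM in controls (log2 fold change −1.06 ± 0.18, DESeq2 adjusted p = 0.000636, kept in 1 of 4 fits). Of 43 genes of the synaptic vesicle 4 were called higher and 1, Cplx3, lower (0.905% and 0.436% over all genes). Syt17, a synaptotagmin (log2 fold change 1.38 ± 0.31), Unc13c, a vesicle-priming protein (1.08 ± 0.23), and Syt13 (0.90 ± 0.18, named after its value was seen) were 3 of the higher ones. Syn2, a synapsin that coats vesicles, had 202 and 204 CPM in mutants, against 101 and 96.4 CPM in controls (log2 fold change 1.04 ± 0.16, DESeq2 adjusted p = 0.000148), and was called in every fit that left out 1 library. Of 54 potassium channel genes 1 was called in each direction (Kcnj10 and Kcnab1), and of 35 sodium, calcium and HCN channel genes none was (lowest edgeR p: Cacng3 at 0.84 ± 0.33 and Scn9a at 1.09 ± 0.52). Gucy1a1, a subunit of the nitric oxide receptor guanylate cyclase, had 118 and 114 CPM in mutants, against 226 and 247 CPM in controls (log2 fold change −1.04 ± 0.17, DESeq2 adjusted p = 0.000151, kept in 3 of 4 fits). In the same list of 26 cyclic nucleotide genes the secreted peptide Ostn was the other lower call, with 0 reads in mutants against 72 in controls. That made it at least 22.8-fold lower, taking a floor of 3 reads over the group.

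Astrocyte markers held 9 of the higher calls. Of 17 tested, 9 were called higher and none lower (0.905% and 0.436% over all genes), 16 did not overlap on the higher side (17.4% over all genes), all 17 had a log2 fold change above 0, and the median was 0.90. Their summed level was 5728 and 5057 CPM in mutants, against 2908 and 2516 CPM in controls. In these bulk samples a larger share of astrocytes in the cut piece and more of this RNA per astrocyte cannot be told apart. The median was 0.81 within replicate number 1 and 0.95 within number 2. Of the 9 calls 6 were kept without mutant 1, 6 without mutant 2, 6 without control 1 and 5 without control 2. Astrocytes of the cortex arise from the progenitors that Emx1Cre reaches, once these have made neurons.

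Agt, angiotensinogen (chromosome 8, 124556534 to 124569706), had 8.08 and 11.2 CPM in mutants, against 0.718 and 1.03 CPM in controls (log2 fold change 3.48 ± 0.39, DESeq2 adjusted p = 2.42e-13). Aqp4, the water channel of astrocyte endfeet, had 239 and 195 CPM in mutants, against 78.3 and 72.4 CPM in controls (log2 fold change 1.53 ± 0.18, DESeq2 adjusted p = 6.25e-09). Apoe, the lipid carrier, had 1172 and 1091 CPM in mutants, against 549 and 459 CPM in controls (log2 fold change 1.17 ± 0.20, DESeq2 adjusted p = 1.18e-05). These, Sparcl1 and the gap junction gene Gja1 were called in every fit that left out 1 library. Gfap, the filament protein of white-matter and reactive astrocytes, had 25.4 and 28.7 CPM in mutants and 25.0 and 18.1 CPM in controls (log2 fold change 0.33 ± 0.23, not called), and Clu had a log2 fold change of 0.16 ± 0.17. The list therefore did not differ evenly: its values ran from 0.16 to 3.48.

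Transport genes known from astrocytes were called higher as well, and were picked for mention after their calls were seen. Kcnj16, a potassium channel subunit that pairs with Kcnj10, had 23.2 and 14.6 CPM in mutants, against 4.8 and 4.05 CPM in controls (log2 fold change 2.09 ± 0.31, DESeq2 adjusted p = 9.66e-08). Slc4a4, a sodium bicarbonate cotransporter, had 211 and 163 CPM in mutants, against 77.0 and 78.8 CPM in controls (log2 fold change 1.26 ± 0.19, DESeq2 adjusted p = 1.06e-05). Both were called in every fit that left out 1 library. Kcnj10 (0.84 ± 0.19), the zinc transporter Slc39a12 (1.95 ± 0.39), the amino acid transporter Slc7a10 (1.09 ± 0.23) and the GABA-degrading enzyme Abat (1.16 ± 0.18) were called higher too, each kept in at most 2 of the 4 fits.

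Lists of other glia and progenitors had fewer calls than the astrocyte list and medians smaller in size, though single members differed strongly. Of 16 radial glia markers, many of which astrocytes share, 1 was called higher, Lrig1, a receptor inhibitor of slowly dividing cells. Lrig1 had 94.9 and 72.5 CPM in mutants, against 39.3 and 36.9 CPM in controls (log2 fold change 1.14 ± 0.20, DESeq2 adjusted p = 0.000375, kept in 2 of 4 fits). The median of that list was 0.27 (0.14 without control 2 and 0.55 without control 1). Of 8 markers of intermediate progenitors, Insm1, a zinc-finger factor of newborn neurons, was called lower, at 2.29 and 5.16 CPM in mutants and 12.8 and 10.9 CPM in controls. Its log2 fold change was −1.68 ± 0.41, and leaned on mutant 1: it was −2.37 without mutant 2 and smaller in size without mutant 1. In the same list Eomes (log2 fold change −3.07) and Neurog2 (−1.03) were not called and had overlapping groups. The median of the 8 was −0.11 (0.19 without control 1 and −0.62 without control 2), and 2 of them had a log2 fold change above 0. The call of Insm1 was kept in 1 of 4 fits. None of 22 cell cycle genes was called, and their median was 0.03, from −0.17 within replicate number 1 to 0.38 within number 2, and from −0.26 without control 2 to 0.64 without control 1. Mki67, which marks dividing cells, had 29.5 and 22.9 CPM in mutants and 20.3 and 13.3 CPM in controls (log2 fold change 0.64 ± 0.27, not called), and Rrm2 had a log2 fold change of −0.39 ± 0.20. None of 13 oligodendrocyte lineage markers was called (median 0.21, with Cnp at 0.46 ± 0.18 and Cspg4 at 0.42 ± 0.22). The 18 markers of endothelium and pericytes all had log2 fold changes above 0, with a median of 0.52 and no call. Of these, 9 had an unadjusted edgeR p under 0.05 (4.47% over all genes on the higher side). The endothelial cadherin Cdh5 (0.66 ± 0.21) and the pericyte gene Vtn (0.78 ± 0.26) had the lowest p. The summed level was 763 and 631 CPM in mutants, against 556 and 459 CPM in controls. The 7 erythroid markers summed to 1447 and 2169.6 CPM in mutants, against 1284 and 1422 CPM in controls, highest in mutant 2. They had no call and a median of 0.44 (Hbb-bt 0.47 ± 0.21, Hbb-bs 0.47 ± 0.21), which was 0.09 without mutant 2.

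**Figure D3:**
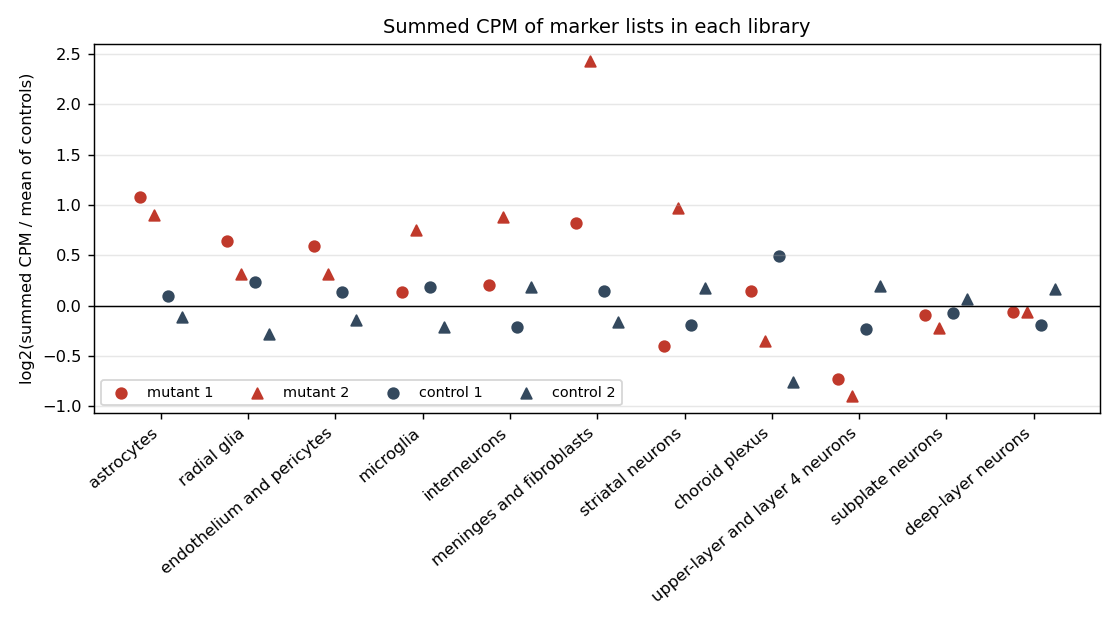
Summed CPM of 11 marker lists in each library, as log2 of the ratio to the mean of the 2 controls, for mutants (red) and controls (blue) with circles for replicate 1 and triangles for replicate 2. Astrocyte sums are high in both mutants and upper-layer sums low in both, whereas meningeal, striatal, interneuron and microglial sums are highest in mutant 2.

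Mutant 2 stood apart in markers of neighbouring tissues. The 13 markers of meninges and fibroblasts summed to 67.6 and 207 CPM in mutants, against 42.3 and 34.3 CPM in controls. Of these, 4 were called higher (Dcn, Col1a2, Col3a1 and Aldh1a2) and 12 did not overlap on the higher side (17.4% over all genes). Their median was 2.29 with all libraries and 1.11 without mutant 2, and none of the 4 calls was kept without it. Aldh1a2, the retinoic acid enzyme that defines meningeal cells, had 0.509 and 7.46 CPM in mutants, against 0.0299 and 0 CPM in controls. Col1a2, a chain of collagen I, had 15.6 and 55.7 CPM in mutants, against 8.79 and 5.67 CPM in controls (log2 fold change 2.29 ± 0.53, and 1.11 without mutant 2). Genes of this tissue were also among the largest changes on the higher side. Ptgds, a prostaglandin D synthase of the meninges, had 14.4 and 181 CPM in mutants, against 3.11 and 1.98 CPM in controls. Slc13a4 and Slc22a6, transporters of sulfate and organic anions found in meningeal cells, had 1.09 and 11.4 CPM and 1.07 and 9.53 CPM in mutants, and at most 0.0598 CPM in controls. The matrix genes Dcn, Lox and Col6a1 had 1.10 and 11, 0.407 and 5.14, and 3.02 and 15.2 CPM in mutants, and at most 0.748 CPM in any control. Without mutant 2 the log2 fold change was 2.50 for Ptgds (5.24 with it), 2.58 for Dcn (4.98) and 2.02 for Col6a1 (3.60). F13a1, a coagulation factor subunit of macrophages, had 0.645 and 5.24 CPM in mutants, against 0.449 and 0.308 CPM in controls, and its log2 fold change of 2.92 was 0.76 without mutant 2. How much of these differences is meningeal tissue in the dissected piece was not tested.

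The 20 interneuron markers summed to 745 and 1186 CPM in mutants, against 560 and 733 CPM in controls, with a median of 0.73 and of 0.33 without mutant 2. Of these 5 were called higher, and 3 of the calls were kept without mutant 1, none without mutant 2, none without control 1 and 2 without control 2. Gad1, which makes GABA, had 54.3 and 98.4 CPM in mutants, against 27.2 and 43.7 CPM in controls (log2 fold change 1.11 ± 0.32, and 0.62 without mutant 2). Adarb2, a marker of interneurons from the caudal ganglionic eminence, was level between the mutants, with 27.5 and 27.4 CPM, against 9.17 and 13 CPM in controls (log2 fold change 1.31 ± 0.25, DESeq2 adjusted p = 0.000608). Calb1, a calcium-binding protein, had 13.5 and 31.6 CPM in mutants, against 7.45 and 8.19 CPM in controls (log2 fold change 1.53 ± 0.39, and 0.79 without mutant 2). The 14 striatal markers summed to 273 and 705 CPM in mutants, against 315 and 406 CPM in controls, with no call. Their median was 1.09, but −0.27 without mutant 2 and −0.35 within replicate number 1. Penk, which encodes enkephalin, had 10.4 and 53.7 CPM in mutants and 6.88 and 6.47 CPM in controls, and the retinoid receptor Rxrg had 10.9 and 73.1 CPM in mutants and 11.2 and 5.54 CPM in controls. Microglial markers summed to 173 and 266 CPM in mutants, against 180 and 137 CPM in controls, with a median of 0.48 and of 0.01 without mutant 2. Csf1r, the receptor that microglia need to survive, had 36.7 and 53.7 CPM in mutants and 34.1 and 25.6 CPM in controls, and Cx3cr1 had 20.6 and 32.8 CPM in mutants and 20.2 and 15.4 CPM in controls, with no call in this list. Rasgrf1, a Ras exchange factor of neurons, and Baiap3, a protein of vesicle release, were among the largest or firmest higher calls and were also highest in mutant 2. Rasgrf1 had 10.9 and 26.3 CPM in mutants, against 3.17 and 3.03 CPM in controls, and its log2 fold change of 2.58 was 1.82 without mutant 2. Baiap3 had 4.87 and 18.4 CPM in mutants, against 1.48 and 1.69 CPM in controls, and its log2 fold change of 2.87 was 1.62 without mutant 2.

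Among genes of multiciliated cells, the lining of the ventricle and its precursors, control 1 stood apart. The list was made after Ccno, Deup1 and Lrrc23 had been seen among the largest changes. Of 22 genes these 3 were called lower, 17 had a log2 fold change below 0, and the median was −0.68, with −0.71 within replicate number 1 and −0.06 within number 2. Without control 1 the median was 0.27 and none of the 3 calls was kept. Ccno, a cyclin that drives the making of many cilia, had 0.0679 and 0.338 CPM in mutants, against 2.98 and 2.80 CPM in controls (log2 fold change −3.89 ± 0.71, DESeq2 adjusted p = 3.4e-05, kept in 2 of 4 fits), and was low in both mutants. Deup1, which builds centrioles for these cilia, had 0.306 and 0.290 CPM in mutants, against 4.91 and 0.462 CPM in controls, and its log2 fold change of −3.18 was −0.63 without control 1. Lrrc23, of the motile cilium, had 0.306 and 0.0965 CPM in mutants, against 8.23 and 0.975 CPM in controls, with −4.45 for all libraries and −2.23 without control 1. Foxj1, the factor that directs motile cilia, had 3.04 and 3.62 CPM in mutants, against 27.7 and 3.93 CPM in controls, and was not called. How much ventricular lining each piece held was not tested. Of 7 choroid plexus markers none was called (median −0.13, but 1.47 without control 1 and −0.58 without control 2, with Clic6 at 1.36 ± 0.60 and Sostdc1 at 1.06 ± 0.47).

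Genes at or near 0 reads in 1 group were set apart, since their fitted values depend on a small added count. The mast cell proteases Mcpt2 and Cma1 had 151 and 52 reads in mutants and 0 in controls, which made them at least 53.1-fold and 18.3-fold higher. Mcpt2 was mostly from mutant 2, with 0.407 CPM in mutant 1 and 3.06 CPM in mutant 2. Serpinb1a, a protease inhibitor, had 133 reads in mutants and 0 in controls, at least 46.8-fold higher. Mcpt2, Cma1 and Serpinb1a were chosen after their values were seen.

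The remaining named genes on the lower side have no single theme. Cldn3, a tight-junction claudin, had 1.66 and 1.54 CPM in mutants, against 7.76 and 12 CPM in controls (log2 fold change −2.62 ± 0.36, DESeq2 adjusted p = 1.23e-08). Klhl14 had 2.33 and 1.09 CPM in mutants, against 10.5 and 11.8 CPM in controls (log2 fold change −2.69 ± 0.41, and −3.36 without mutant 1). Tbc1d5, which acts on Rab7 in endosome sorting, had 39.0 and 39.8 CPM in mutants, against 97.6 and 142 CPM in controls (log2 fold change −1.60 ± 0.22, DESeq2 adjusted p = 8.07e-08). These 3 were called in every fit that left out 1 library. Trpa1, an irritant-gated channel (−2.59 ± 0.41), Plb1, a phospholipase (−2.57 ± 0.50), and Ly6g6e (−2.43 ± 0.42) were called lower at levels under 5 CPM in every library and were kept in 2, 0 and 1 of the 4 fits. The immediate early gene Nr4a3 was the only call among 23 such genes, at 43.3 and 23.4 CPM in mutants, against 70.1 and 71.5 CPM in controls (log2 fold change −1.08 ± 0.28, kept in 1 of 4 fits). Of 34 ribosomal protein genes, 17 stress genes and 14 cell death genes none was called, with medians of 0.07 (−0.16 without mutant 2), −0.12 (−0.03 without mutant 2) and −0.01 (−0.18 without mutant 1). The lowest p among them were those of Rps24 (0.26 ± 0.18) and Rpl30 (0.30 ± 0.26), of the heat-shock genes Hspa1a (−0.54 ± 0.34) and Hspa1b (−0.74 ± 0.35), and of Bbc3 (−0.42 ± 0.21) and Cdkn1a (0.34 ± 0.18), in log2 fold change.

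**Figure D4:**
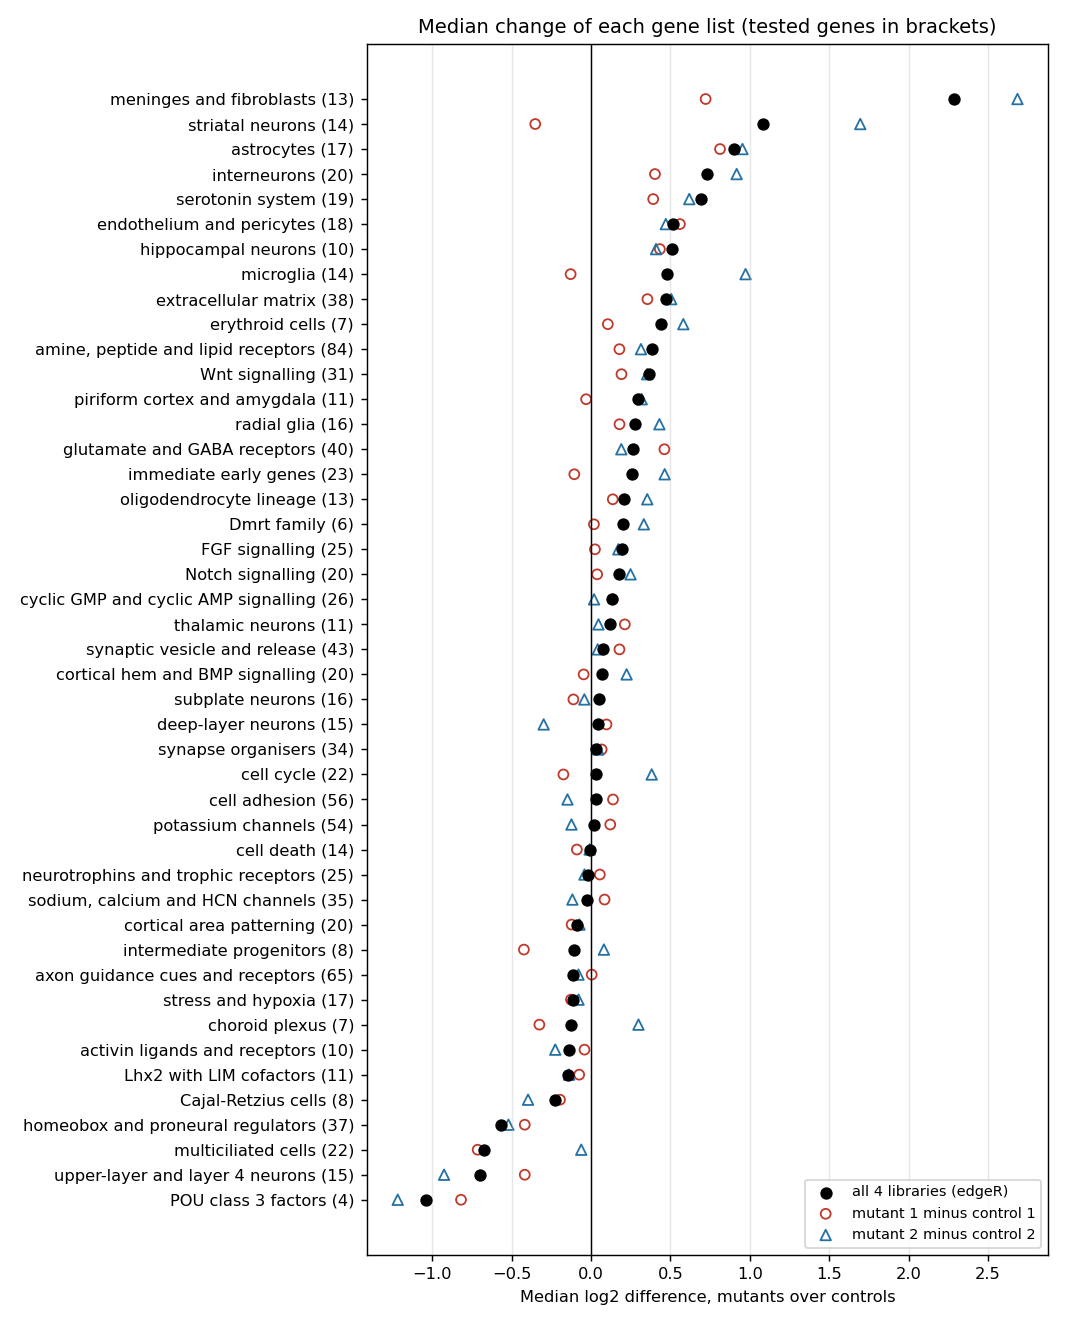
Median log2 difference of each gene list over all 4 libraries (black, edgeR fold changes) and within replicate number 1 (red circle) and 2 (blue triangle), with the number of tested genes in brackets. The markers of astrocytes (0.81 and 0.95) and of endothelium (0.56 and 0.47) have near-equal values in both numbers, and those of striatum (−0.35 and 1.70) and meninges (0.72 and 2.69) do not.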

How the data were processed

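Subplate RNA was sequenced as paired reads of 100 bp (TruSeq RNA V2, HiSeq2500, per the labels), and the deposited table holds raw counts per gene and library. Per the submitters' processing notes, HISAT2, SAMtools and DESeq2 were used with build mm10; versions, the counting program, its annotation and whether it used strand were not given in the sources used here; reads of overlapping or antisense genes cannot be told apart. Of the deposited rows, 26 with all-digit names (0.239% to 0.266% of reads) were dropped. The 37 mitochondrial genes had 0 reads. Symbols were matched to GENCODE M21 (53437 of 55202, 96.8%) for coordinates. Genes were kept by edgeR's filterByExpr (minimum count 10, minimum total 15), which left 18562.

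The main test was edgeR 4.0.16 (R 4.3.3), with TMM scaling, glmQLFit and glmQLFTest at package defaults, two-sided, with Benjamini-Hochberg adjustment across the 18562 genes (threshold 0.05), on the 4 libraries of this line with no covariate (residual degrees of freedom 2, prior 6.37). DESeq2 1.42.0 (Wald test, own size factors, independent filtering off) was run on the same data. On simulated counts for this comparison (18562 genes) edgeR recovered 38% of 2-fold and 87% of 4-fold changes with 17 false calls, and DESeq2 50% and 89% with 33 false calls. In this simulation the false calls of both tools were a larger share of all their calls than the threshold of 0.05 allows. The simulated pools were drawn independently, without a deviation shared by same-numbered pools. Changes were placed only in genes with a mean above 1 CPM, and the spread of each gene was the value edgeR had fitted. The recovered shares therefore need not hold for the real libraries, where edgeR called no gene. The lack of edgeR calls does not show that large changes were absent. Within-number differences used log2(CPM + 0.5). Gene lists are described by counts and medians, with no set test. P-values measure the spread between pools, and floors of 3 reads cover counting error only.

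The members and gene lists were chosen with earlier results of these data known. Named are Lhx2, Emx1 and Neurod6. With them stand the 12 called genes with the largest change and the 12 with the lowest DESeq2 p in each direction, with a mean of at least 1 CPM and no overlap between groups, leaving out placeholder names and pseudogenes. Up to 4 called genes of each list are named, or the 2 with the lowest edgeR p where none was called. Further genes, among them those called in every fit that left out 1 library, other members of described lists, transport and receptor genes, and the multiciliated, Dmrt and receptor lists, were chosen after their values were seen. Some genes that these rules name are not reported here. Alternatives were RLE and upper-quartile scaling, no filter, a strict filter (1 CPM in 2 libraries, a mean of 20 counts), a robust spread, DESeq2 with TMM factors, all 8 libraries in 1 fit, a replicate block and leaving out each library.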

Additional observations from a re-analysis of the deposited data

How the results depend on the processing

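The edgeR count of 0 calls (1181 at an unadjusted p under 0.05) was the same with RLE or upper-quartile scaling, a robust spread and the strict filter. It was 428 with no filter, 18 (5 higher, 13 lower) with all 8 libraries, all 18 among DESeq2's 249, and 249 by DESeq2. Leaving out 1 library gave 35 (without mutant 2) to 364 (without mutant 1) edgeR calls; with 1 pool left in a group, that pool is taken to vary like the others. The prior degrees of freedom differed with the setting, from 6.37 in the main fit to 15.18 without mutant 2, 179.83 without mutant 1 and no finite value with no filter. DESeq2's 249 calls became 214 with no filter, 253 with the strict filter, 264 with TMM factors and 284 with all 8 libraries. Leaving out 1 library gave 69 (without mutant 2) to 180 (without mutant 1). Same-numbered pools deviated together across 18562 genes (correlation 0.341), but with 2 numbers this does not show that they were paired. With the replicate block edgeR called 574 genes (245 of the 249) and DESeq2 429 (232 of the 249). Of 171 named genes 12 changed direction under some alternative, none of them called. Emx2 was −0.00671 with RLE scaling, −0.00842 with the replicate block, −0.00664 with all 8 libraries and −0.00581 by DESeq2, and Bcl11b was −0.0135 with the replicate block. With a library left out the log2 fold changes ran from −0.51 to 0.45 for Bcl11b, −12.41 to 2.62 for Ddx3y, −0.23 to 0.49 for Dmrta1, −0.15 to 0.11 for Dmrta2, −0.23 to 0.21 for Emx2, −0.25 to 0.13 for Fezf2, −0.50 to 0.0167 for Htr2a, −0.28 to 0.00833 for Ldb1, −0.0861 to 0.33 for Lmo4, −0.60 to 0.00854 for Neurod6, −0.35 to 0.53 for Pou3f4 and −0.17 to 0.66 for Rpl30. The cause was not tested. Pools of 1 group differed by 80.2 (mutants) and 68.2 (controls) times their counting noise (chi-square per degree of freedom). How many of the tested genes depth limits was not computed.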

Other observations

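Genes of neuronal identity and metabolism outside the lists also stood among the calls, and were picked after their values were seen. Klhl1, an actin-binding protein of neurons, had 9.25 and 7.24 CPM in mutants, against 21.6 and 25.0 CPM in controls (log2 fold change −1.5 ± 0.25, DESeq2 adjusted p = 2.49e-05, kept in 3 of 4 fits). Lpl, lipoprotein lipase, which frees fatty acids from lipid particles, had 55.5 and 32.8 CPM in mutants, against 103 and 159.5 CPM in controls (log2 fold change −1.57 ± 0.30, DESeq2 adjusted p = 3.67e-05, kept in 3 of 4 fits). Lpl and Apoe, the lipid carrier, thus stood on opposite sides. Esrrg, an orphan nuclear receptor, was lower (−1.19 ± 0.28), and its call was kept in 1 of the 4 fits. On the higher side Selenop, the selenium carrier, had 164 and 162 CPM in mutants, against 70.0 and 60.2 CPM in controls (log2 fold change 1.33 ± 0.17, DESeq2 adjusted p = 4.18e-07), and Etl4 had 41.8 and 39.1 CPM in mutants, against 14.3 and 15.1 CPM in controls (log2 fold change 1.46 ± 0.20, DESeq2 adjusted p = 8.93e-07). In both, the pools of a group lay close together.

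Across the 18562 tested genes the differences within replicate number 1 and within number 2, which share no library, had a Pearson r of 0.275. Genes are not independent replicates, so no p is given.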
